A study of Saccharomyces cerevisiae with 8 samples.

Results

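Xrn1-sensitive unstable transcripts (XUTs) are noncoding RNAs of budding yeast, Saccharomyces cerevisiae. The set described here is every transcript of the deposited annotation whose name begins with XUT, 433 of 6030 annotated transcripts, chosen by name and by no measured value. Each is given with the transcript of an open reading frame (ORF transcript) on the opposite strand where one overlaps it. Xrn1 is the cytoplasmic exonuclease that degrades decapped RNA from its 5′ end, and XUTs are known as RNA polymerase II products that build up when this enzyme is missing. Many of them run antisense to a coding gene, and some antisense transcription is known to lower expression of the gene it crosses. Mediator is the complex that passes signals from gene-specific activators to RNA polymerase II, and Med7, Med21 and Med10 are subunits of its middle module.

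RNA was measured in a parent strain and in strains carrying the allele med7-1002, med21-1002 or med10-1002, with 2 libraries in each of the 4 groups. The labels give all 8 libraries the markers ura3, ade-, trp1-1, his3-11,15 and leu2-3,112, together with cyh2r, can1-100, hsp82- and the reporter DHSE-lacZ, in MATa cells. No label mentions XRN1, and its transcript was not analysed here. No allele is described as a deletion. Cells grew at 30 °C in rich glucose medium from an OD600 of 0.1 to 0.8 and then took up 4-thiouracil, given at 5 mM for 6 min and built into RNA in place of uracil. Labelled RNA was purified before library preparation from 100 ng, so the counts weight newly made RNA, and a change in synthesis and a change in decay during the pulse cannot be told apart. Spike-in RNA was added before lysis but its counts were not analysed here, so every level is relative to the other transcripts of its library. In these bulk samples fewer cells that make a transcript and less of it per cell cannot be told apart.

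The starts of 6 XUTs described below are printed here. They were taken from those whose window overlaps no untranslated region of an annotated coding transcript, so other XUTs described below are not shown. Each line holds 150 bases of build R64 on the strand of the XUT, 5′ to 3′, with the annotated start at base 101, and capitals mark the hexamers TATAAA and TATATA found on either strand in the 100 bases before the start (TATAAA on the other strand reads TTTATA).
XUT_2R-85, chrII:220738-220887, minus strand: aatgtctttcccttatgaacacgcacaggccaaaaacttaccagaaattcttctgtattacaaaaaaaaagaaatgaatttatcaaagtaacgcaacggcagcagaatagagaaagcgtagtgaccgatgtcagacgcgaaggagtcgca
XUT_8F-92, chrVIII:201778-201927, plus strand: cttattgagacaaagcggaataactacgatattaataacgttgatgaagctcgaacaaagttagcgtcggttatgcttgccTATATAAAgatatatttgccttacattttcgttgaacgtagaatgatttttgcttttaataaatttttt
XUT_7F-347, chrVII:778068-778217, plus strand: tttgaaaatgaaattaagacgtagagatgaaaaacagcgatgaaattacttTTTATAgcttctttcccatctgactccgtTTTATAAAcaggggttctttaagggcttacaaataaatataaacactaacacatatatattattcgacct
XUT_11F-281, chrXI:642901-643050, plus strand: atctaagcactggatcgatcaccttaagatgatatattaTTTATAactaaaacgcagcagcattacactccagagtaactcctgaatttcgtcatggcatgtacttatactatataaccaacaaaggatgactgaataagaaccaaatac
XUT_7F-333, chrVII:752935-753084, plus strand: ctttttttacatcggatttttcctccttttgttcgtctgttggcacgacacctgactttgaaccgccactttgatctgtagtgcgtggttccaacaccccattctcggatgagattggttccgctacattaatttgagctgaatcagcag
XUT_5R-168, chrV:366998-367147, minus strand: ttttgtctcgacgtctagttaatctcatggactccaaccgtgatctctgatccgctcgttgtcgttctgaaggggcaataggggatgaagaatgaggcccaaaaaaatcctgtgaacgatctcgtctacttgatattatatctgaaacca
The windows of XUT_7F-333 and XUT_5R-168 lie inside the coding sequences of YGR130C and RTT105, read on the other strand, and the other 4 windows lie between annotated coding transcripts. These hexamers are forms of the TATA element that TATA-binding protein recognises. At least 1 of them, on either strand, stood within 100 bases before the start of 28.9% of all 433 XUTs and of 30.8% of all 6030 transcripts. Among tested XUTs the 108 with such a hexamer and the 243 without had median log2 fold changes of −0.46 and −0.40 for med7-1002, −0.37 and −0.40 for med21-1002, and 0.33 and 0.24 for med10-1002.

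The XUTs are 228 to 3874 nt long, with a median of 760 nt. An ORF transcript lies opposite 267 of them, with a median overlap of 606 nt, and these pairs hold 264 different ORF transcripts, so some pairs share an ORF. A further 44 lie opposite a coding gene that is found in the RefSeq annotation alone and was not analysed here, and 122 have no coding gene opposite. Of the 267 pairs, 123 XUTs start inside the ORF transcript and run past its start, 81 start beyond its end and enter it, 50 start and end inside it, and 13 span it. An ORF transcript starts on the other strand within 500 nt upstream of 190 XUTs. Within 20 kb of a chromosome end lie 26 XUTs (6.00%), against 2.52% of all transcripts. Another transcript on the same strand wholly covers 40 XUTs, and 38 of these have 0 counts in all 8 libraries. A further 132 are partly covered, so their counts come from the uncovered part alone. The low-count filter passed 351 XUTs, and 38 of the 82 that did not pass are wholly covered ones.

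XUTs took a small part of the counts. They held 0.287% and 0.317% of the assigned counts in the parent libraries (replicate 1, then replicate 2), on totals of 10962170 to 23629303 assigned counts per library. The mutant libraries held 0.234% and 0.116% for med7-1002, 0.272% and 0.259% for med21-1002, and 0.417% and 0.449% for med10-1002. Both med10-1002 libraries thus lay above all other libraries, and both med7-1002 libraries lay below both parent libraries, with a wide gap between them. The median XUT had 17 to 44 counts per library. Per kb of uncovered length, the median parent level was 3.66 CPM (counts scaled to the library size, with the TMM factors of edgeR) for 363 XUTs, 5.65 for stable unannotated transcripts (SUTs), 1.83 for cryptic unstable transcripts (CUTs) and 56.4 for ORF transcripts, the first 3 being the noncoding classes of the annotation.

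The med7-1002 libraries differed from the others and between themselves. Replicate 1 had the fewest assigned counts of all libraries, 10962170. In it 49.5% of reads were assigned to no feature, against 32.7% to 37.7% elsewhere. It also had 102 XUTs at 0 counts, against 47 to 65 elsewhere. Over the 351 tested XUTs, log2 differences between the replicates of a group had an SD of 1.69 for med7-1002, against 0.58 for parent, 0.67 for med21-1002 and 0.45 for med10-1002, and 210 XUTs were more than 2-fold apart in the med7-1002 pair. Although all labels read MATa, 4 measured genes of alpha cells summed to 848 to 1287 CPM in the 6 libraries of the other groups, against 61.0 and 70.2 in med7-1002. The 5 measured genes of a cells summed to 15.0 to 63.4 CPM in those 6 libraries and to 482 and 698 in med7-1002. The 6 libraries therefore go against their label on these genes. In med7-1002 STE3 and MF(ALPHA)1 had 24 and 10 counts in replicate 1 and 0 in replicate 2. SAG1, another of the alpha cell genes, stood at 52.5 and 68.4 CPM there and made up most of the med7-1002 sums. The strain difference in these mating-type genes and the med7-1002 allele cannot be told apart. The test pools the spread over the 4 groups, so results for med21-1002 and med10-1002 are also given without the med7-1002 libraries. Nothing in the labels says that the 2 libraries of a group came from separate cultures, so p-values measure only how far these libraries differ, which may be a technical spread.

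**Figure D1:**
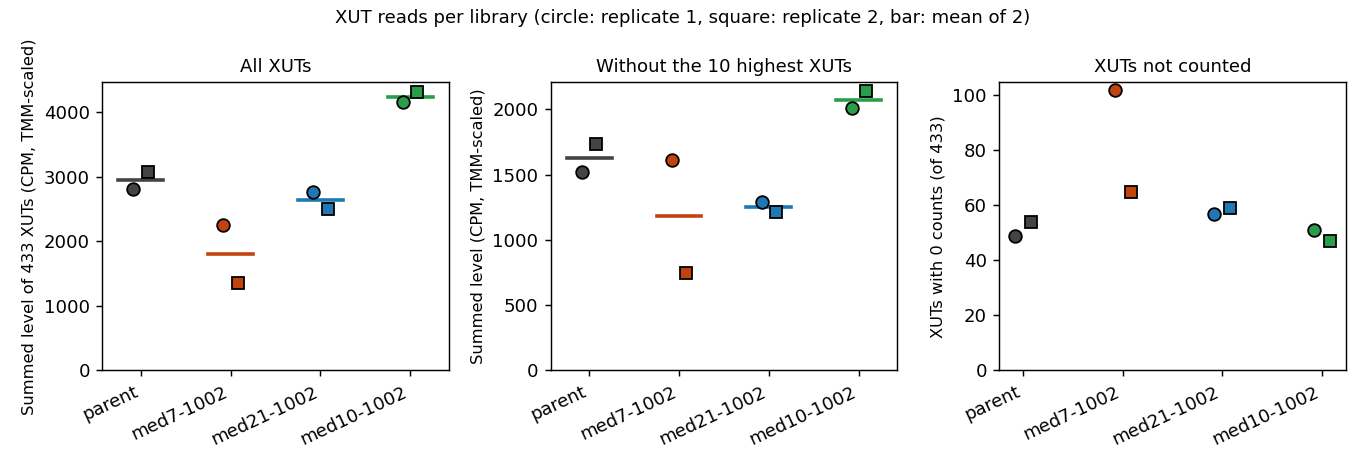
Summed XUT level in CPM (scaled by TMM) per library for all 433 XUTs and without the 10 highest, and the number of XUTs with 0 counts; points are libraries and the bars in the first 2 panels are means of 2. Both med10-1002 libraries lie above both parent libraries in the first 2 panels, and the med7-1002 replicates lie far apart in all 3.

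In med10-1002 the XUTs were higher as a class. Their summed level was 2811 and 3074 CPM in parent and 4164 and 4314 CPM in med10-1002, a mean of 2942 ± 186 against 4239 ± 106 (SD, n = 2). Without the 10 highest XUTs the means were 1627 ± 154 and 2072 ± 90.5, and the groups did not overlap in either sum. With 2 libraries against 2 an exact two-sided permutation test cannot give a p below 0.333, so no test of these sums is given. The median log2 fold change of tested XUTs was 0.27, against −0.01 over all 5746 tested transcripts, 0.49 over SUTs, −0.48 over CUTs and −0.02 over ORF transcripts. Both med10-1002 libraries lay above both parent libraries for 44.2% of the XUTs and below them for 21.4%, where the shares over all transcripts were 37.6% and 39%. By single transcripts 17 XUTs rose and 2 fell (edgeR quasi-likelihood test, Benjamini-Hochberg adjusted p under 0.05), where 4.93% and 2.63% of all transcripts were called in these directions. The 17 are 4.84% of the tested XUTs and the 2 are 0.57%, so the share that rose was near the background and the share that fell was below it. At an unadjusted p under 0.05 48 were higher and 9 lower. Without the med7-1002 libraries 83 of 334 XUTs rose (24.9%) and 22 fell (6.59%), against 20.8% and 16% of all transcripts, and all 19 calls of the fit with 8 libraries were among them. No XUT was called when either parent replicate was left out, with 20 higher and 7 lower at an unadjusted p under 0.05 without replicate 1 and 23 and 1 without replicate 2.

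In med21-1002 the XUTs were lower as a class by median, while few passed the test one by one. The median log2 fold change was −0.39, against 0.00 over all transcripts, −0.44 over SUTs, −0.56 over CUTs and 0.04 over ORF transcripts, and 270 of 351 XUTs lay below 0. The summed level was 2761 and 2503 CPM, a mean of 2632 ± 183, and every med21-1002 value lay below both parent values. Without the 10 highest XUTs the mean was 1249 ± 53.8. The edgeR test called 4 XUTs higher (1.14%) and 5 lower (1.42%), where 3.88% and 3.92% of all transcripts were called. At an unadjusted p under 0.05 these counts were 5 and 34. Without the med7-1002 libraries 6 of 334 XUTs rose (1.80%) and 63 fell (18.9%), against 14.8% and 14.9% of all transcripts. Both med21-1002 libraries lay below both parent libraries for 49.0% of the XUTs and above them for 7.41%, against 31.9% and 31% of all transcripts. Leaving out either parent replicate left 3 and 2 calls, without replicate 1 and replicate 2, and leaving out med21-1002 replicate 1 or 2 left 5 and 3.

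In med7-1002 most of the called XUTs fell, and the size of the shift differed between its libraries. The edgeR test called 8 XUTs higher and 75 lower, where 25.9% and 22.6% of all transcripts were called. The 75 are 21.4% of the tested XUTs, near the background, and the 8 are 2.28%, below it. The median log2 fold change was −0.41, against 0.02 over all transcripts, −0.54 over SUTs, 0.03 over CUTs and 0.07 over ORF transcripts. Of the tested XUTs, 298 had at least 10 counts in both parent libraries. Of these 5 rose and 73 fell in med7-1002, with a median of −0.60. Their medians were −0.41 in med21-1002 and 0.26 in med10-1002. Choosing XUTs by their parent counts favours falls, so these values are no separate support for a fall. With the trend of fold change on transcript length removed, the med7-1002 median over all tested XUTs was −0.78 and 8 XUTs rose and 99 fell. Against the parent mean, the median XUT stood at −0.11 in med7-1002 replicate 1 and at −1.07 in replicate 2. Without replicate 1 the calls were 9 higher and 182 lower, and without replicate 2 they were 90 higher and 98 lower. Without parent replicate 1 or 2 the counts that rose and fell were 2 and 45, and 0 and 36, with 1 higher and 69 lower at an unadjusted p under 0.05 in the latter fit. The summed XUT level was 2258 and 1352 CPM, both below both parent libraries, a mean of 1805 ± 640, but without the 10 highest XUTs it was 1614 and 744 CPM, and the first value lay between the parent values of 1518 and 1736 CPM.

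**Figure D2:**
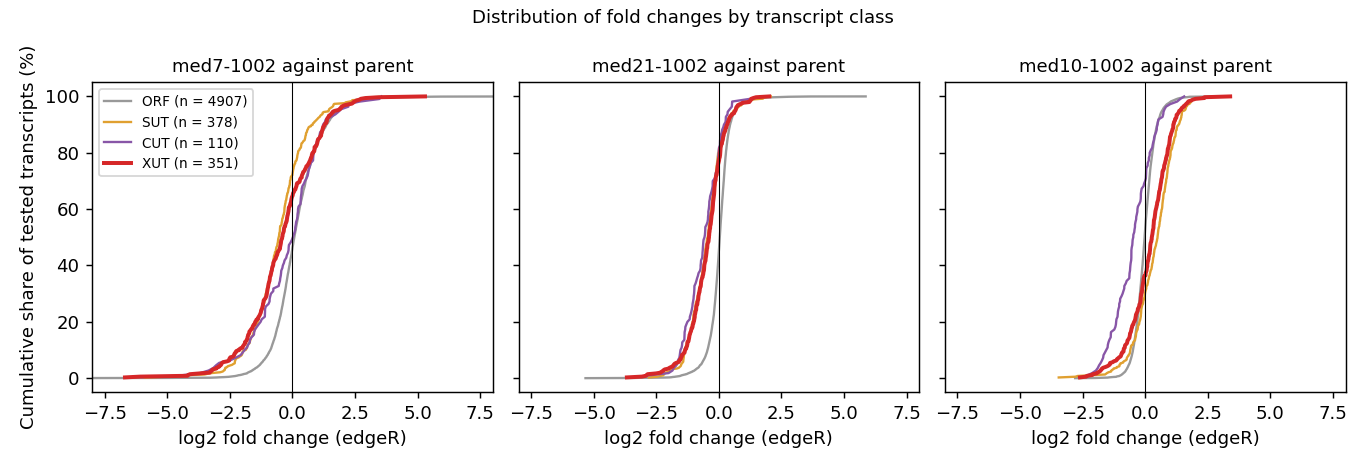
Cumulative share of tested transcripts (%) by log2 fold change against parent for ORF transcripts, SUTs, CUTs and XUTs in each mutant. The XUT curve lies mostly to the left of the ORF curve in med21-1002, where its median is −0.39, and mostly to its right in med10-1002, where its median is 0.27.

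The mutants were also set against each other. Of 351 XUTs 44 (12.5%) were lower and 3 (0.855%) higher in med21-1002 than in med10-1002 (edgeR adjusted p under 0.05), where 10.6% and 9.38% of all transcripts were called. The share that was lower was thus near the background, and the share that was higher was below it. The median difference was −0.65, against 0.03 over all transcripts. Both med21-1002 libraries lay below both med10-1002 libraries for 61.5% of the XUTs and above them for 10.3%, against 35.3% and 37.8% of all transcripts. Without the med7-1002 libraries 141 of 334 (42.2%) were lower and 8 (2.40%) higher in med21-1002, against 24.9% and 22.4% of all transcripts. The count was 31 without parent replicate 1, 29 without parent replicate 2, 23 and 12 without med21-1002 replicate 1 and 2, and 9 and 14 without med10-1002 replicate 1 and 2. Between med7-1002 and med21-1002 44 XUTs (12.5%) were lower and 15 (4.27%) higher in med7-1002, where 18.6% and 22.1% of all transcripts were called. Both med7-1002 libraries lay above both med21-1002 libraries for 49 of the 351 XUTs (14%) and below them for 99 (28.2%), against 32.3% and 31.4% of all. Each of these XUT shares was below the background. Between med7-1002 and med10-1002 109 XUTs (31.1%) were lower and 15 (4.27%) higher in med7-1002, where 25% and 29.9% of all transcripts were called. Both med7-1002 libraries lay below both med10-1002 libraries for 49.3% of the XUTs and above them for 10.8%, against 36.8% and 38.1% of all. The median difference was 0.011 between med7-1002 and med21-1002, against 0.035 over all transcripts. Between med7-1002 and med10-1002 it was −0.692, against 0.045. Against the parent mean, the median XUT stood at −0.11 in med7-1002 replicate 1 and at −1.07 in replicate 2. The med21-1002 libraries stood at −0.38 and −0.45, between these, so the direction against med21-1002 depended on the med7-1002 library. Both med10-1002 libraries, at 0.17 and 0.36, lay above both med7-1002 ones.

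The XUTs were also grouped by their position relative to coding genes. XUTs with an ORF transcript opposite had medians of −0.39 in med7-1002, −0.41 in med21-1002 and 0.20 in med10-1002, and those without had −0.47, −0.34 and 0.40. In med10-1002 8 of 217 tested XUTs with an ORF transcript opposite rose (3.69%), as did 9 of 134 without (6.72%), both near the 4.93% of all transcripts called higher. XUTs that start inside the ORF transcript and run past its start had a med10-1002 median of 0.34 (n = 101), those that start beyond its end and enter it 0.16 (n = 65), and those that start and end inside it −0.01 (n = 40). XUTs free of other transcripts on their strand had medians of −0.30, −0.39 and 0.20 in med7-1002, med21-1002 and med10-1002, and partly covered ones −0.65, −0.35 and 0.39. These differences between subsets were not tested.

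XUT_2R-85 had the most reads of all XUTs. It runs from 218249 to 220787 on the minus strand of chromosome II, starts beyond the end of PDR3 and covers 74.3% of that transcript from the other side, and PDR3 encodes a transcription factor of multidrug resistance. Its level was 425 and 441 CPM in parent, 146 and 144 with med7-1002, 429 and 359 with med21-1002, and 885 and 880 with med10-1002. The med10-1002 libraries lay far above and the med7-1002 libraries far below all others, and the replicates of these groups were close. It rose 2.04-fold in med10-1002 (log2 1.03, SE 0.13, edgeR adjusted p = 0.00376) and fell by 1.58 on the log2 scale in med7-1002 (SE 0.14, adjusted p = 3.65e-05). In med21-1002 the difference was −0.14 (SE 0.13, adjusted p = 0.627). PDR3 itself stood at 261 and 286 CPM in parent and 292 and 280 in med10-1002, groups that overlap (log2 0.07, adjusted p = 0.860), and it fell by 0.68 in med7-1002 (adjusted p = 0.0120).

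XUT_2F-154 lies opposite TAT1, an amino acid permease gene, from 376502 to 378640 on the plus strand of chromosome II, and covers 95.8% of the TAT1 transcript. Its level was 171 and 182 CPM in parent, 42.7 and 46.9 with med7-1002, 107 and 90.2 with med21-1002, and 212 and 232 with med10-1002. The order from med7-1002 through med21-1002 and parent to med10-1002 held without overlap. It fell by 1.98 in med7-1002 (SE 0.13, edgeR adjusted p = 1.51e-05) and by 0.84 in med21-1002 (SE 0.13, adjusted p = 0.00549), and did not pass in med10-1002 (0.33, SE 0.13, adjusted p = 0.150). TAT1 stood at 180 and 181 CPM in parent, 404 and 517 with med7-1002, 488 and 463 with med21-1002, and 304 and 292 with med10-1002. TAT1 thus rose in all 3 mutants, by 1.35, 1.40 and 0.72 (adjusted p = 0.000109, 0.000837 and 0.0226). The parent libraries had log2 ratios of XUT_2F-154 to TAT1 of −0.07 and 0.01. The ratios were −3.24 and −3.46 for med7-1002, −2.19 and −2.36 for med21-1002, and −0.52 and −0.33 for med10-1002, so the 4 groups did not overlap.

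XUT_16F-30 lies on the plus strand of chromosome XVI, from 79559 to 82626, opposite GAL4, the activator of the galactose genes, and covers 98.9% of its transcript. SUT393 covers 38.3% of the XUT on its own strand. XUT_16F-30 stood at 59.6 and 60.2 CPM in parent, 17.1 and 18.5 with med7-1002, 59.5 and 47.6 with med21-1002, and 136 and 137 with med10-1002. It rose by 1.19 in med10-1002 (SE 0.14, edgeR adjusted p = 0.00224), fell by 1.74 in med7-1002 (SE 0.14, adjusted p = 2.76e-05), and stood at −0.16 in med21-1002 (adjusted p = 0.561). GAL4 was at 17.4 and 19.5 CPM in parent, 7.47 and 7.62 with med7-1002, 11.8 and 10.8 with med21-1002, and 21.0 and 20.3 with med10-1002. GAL4 fell by 1.29 in med7-1002 (adjusted p = 0.000833) and did not pass in med21-1002 (−0.70, adjusted p = 0.0685) or med10-1002 (0.16, adjusted p = 0.653). Per kb of uncovered length the XUT exceeded GAL4 in parent, 31.6 against 6.44 CPM per kb.

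XUT_15R-403 was high in both med21-1002 and med10-1002. It runs from 908787 to 911649 on the minus strand of chromosome XV, opposite FAA1, which encodes a long-chain fatty acyl-CoA synthetase. Its level was 93.7 and 100.1 CPM in parent, 107 and 89.9 with med7-1002, 278 and 225 with med21-1002, and 237 and 226 with med10-1002. It rose by 1.38 in med21-1002 (SE 0.15, edgeR adjusted p = 0.000905) and by 1.25 in med10-1002 (SE 0.15, adjusted p = 0.00233), whereas the med7-1002 libraries lay on both sides of the parent ones. FAA1 stood at 278 and 252 CPM in parent and rose by 0.73 in med21-1002 (adjusted p = 0.0250) and by 0.89 in med7-1002 (adjusted p = 0.00154), and was at 0.12 in med10-1002 (adjusted p = 0.684).

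**Figure D3:**
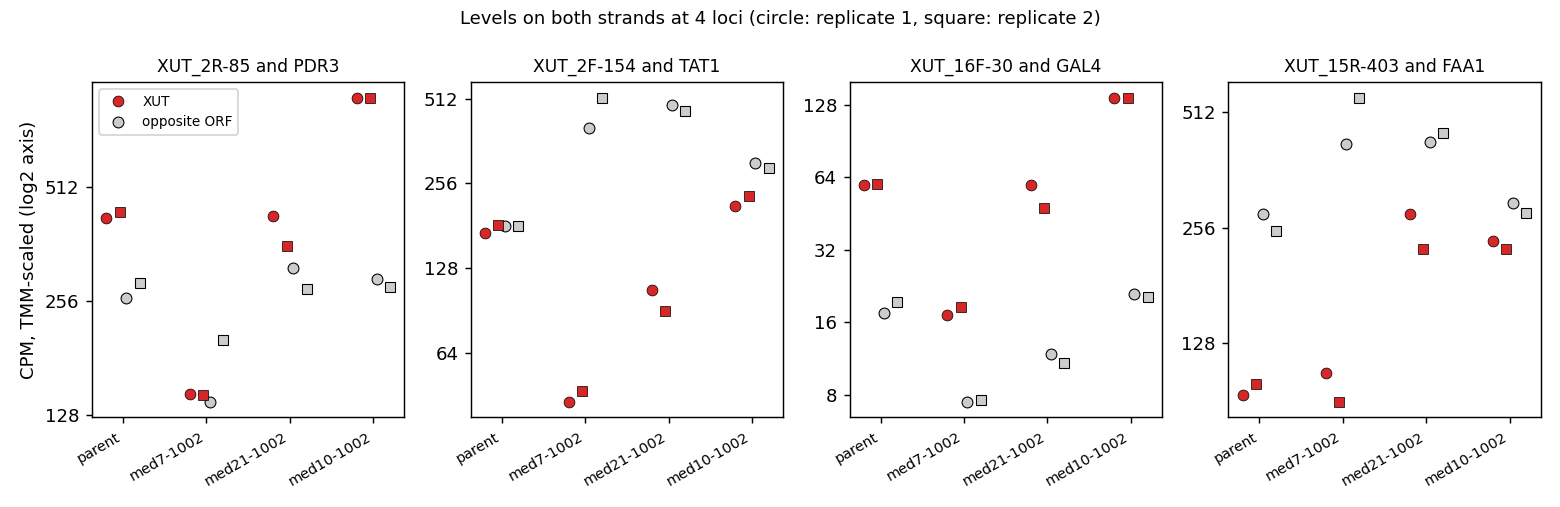
CPM (TMM-scaled, log2 axis) of 4 XUTs and of the ORF transcripts opposite them in each library; circles are replicate 1 and squares replicate 2. XUT_2F-154 and TAT1, level with each other in parent, lie on opposite sides in med7-1002 and med21-1002, and XUT_2R-85 and XUT_16F-30 are highest in med10-1002, while PDR3 there overlaps its parent values.

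Further antisense XUTs were called in med10-1002. XUT_7F-333 starts inside YGR130C and stood at 22.7 and 26.9 CPM in parent, 16.1 and 6.64 with med7-1002, 13.3 and 12.2 with med21-1002, and 63.2 and 68.7 with med10-1002. It rose by 1.41 in med10-1002 (SE 0.32, edgeR adjusted p = 0.0366), while YGR130C stood at 475 and 467 CPM in parent and 479 and 476 in med10-1002 (0.02, adjusted p = 0.957). XUT_5R-36, opposite PAU2, a member of the seripauperin family of near-identical genes whose counts are uncertain, rose from 9.19 and 9.43 to 25.8 and 22.0 CPM (1.36, SE 0.32, adjusted p = 0.0384). XUT_5R-40, opposite the NADH kinase gene YEF1, rose from 4.84 and 4.69 to 14.7 and 14.6 CPM (1.62, adjusted p = 0.0240). XUT_7R-255 rose from 4.092 and 3.971 to 9.997 and 12.01 CPM (1.45, adjusted p = 0.0379), opposite ORM1, a regulator of sphingolipid synthesis. In all 4 cases both med10-1002 libraries lay above every other library, and none of the 4 ORF transcripts opposite passed in med10-1002, with log2 differences of 0.02, 1.33, 0.16 and 0.12.

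The antisense XUT that fell in med10-1002 was XUT_5R-168, which starts inside RTT105, the gene of a chaperone of replication protein A. It stood at 21.8 and 32.7 CPM in parent, 7.38 and 3.39 with med7-1002, 13.5 and 17.5 with med21-1002, and 9.34 and 11.1 with med10-1002. All mutant libraries lay below both parent libraries. It fell by 1.41 in med10-1002 (SE 0.36, edgeR adjusted p = 0.0495) and by 2.37 in med7-1002 (adjusted p = 0.00101), and did not pass in med21-1002 (−0.82, adjusted p = 0.228). RTT105 passed in no mutant, with 13.6 and 15.8 CPM in parent and 14.2 and 16.9 in med10-1002, and differences of −0.22, −0.04 and 0.08.

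In med21-1002 the antisense XUTs that fell were XUT_2F-154, XUT_15R-8, XUT_13F-191 and XUT_10R-287. XUT_15R-8, opposite the sulfatase gene BDS1 and covered for 58.4% by SUT761 on its own strand, was at 7.39 and 7.33 CPM in parent, 2.72 and 1.33 with med7-1002, 1.05 and 1.56 with med21-1002, and 14.2 and 17.1 with med10-1002. It fell by 2.50 in med21-1002 (SE 0.42, edgeR adjusted p = 0.00854) and by 1.90 in med7-1002 (adjusted p = 0.00477), and stood at 1.09 in med10-1002 (adjusted p = 0.115). BDS1 was called in all 3 mutants with the same signs, at −1.54, −1.97 and 1.21, in the order med21-1002, med7-1002 and med10-1002 (adjusted p = 0.000747, 2.45e-05 and 0.00312). XUT_13F-191 fell from 10.4 and 10.8 to 4.06 and 3.39 CPM (−1.50, adjusted p = 0.0300) opposite CTF18, a clamp loader gene. XUT_10R-287, which spans the pectin-degrading enzyme gene PGU1 and is covered for 63.1% by SUT651, fell from 18.9 and 14.2 to 7.72 and 5.28 CPM (−1.34, adjusted p = 0.0383). CTF18 and PGU1 did not pass in med21-1002 (0.24 and −0.53). The 1 further antisense XUT that rose there beside XUT_15R-403 was XUT_7R-269, opposite SCM4, from 5.58 and 7.56 to 19.7 and 33.5 CPM (2.01, SE 0.37, adjusted p = 0.0129).

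Among XUTs with no ORF transcript opposite, XUT_8F-92 separated all 4 groups. It runs from 201878 to 204181 on the plus strand of chromosome VIII, and SUT157 covers 74.7% of it on the same strand, so its reads come from 582 uncovered nt. It had 555 and 544 counts in parent, 34 and 63 with med7-1002, 187 and 160 with med21-1002, and 1129 and 1112 with med10-1002, or 29.5 and 30.0, 2.99 and 3.10, 9.37 and 10.8, and 53.2 and 54.5 CPM. The replicates were close and no groups overlapped. It fell by 3.28 in med7-1002 (SE 0.18, edgeR adjusted p = 1.19e-05) and by 1.56 in med21-1002 (SE 0.16, adjusted p = 0.000838), and rose by 0.86 in med10-1002 (SE 0.16, adjusted p = 0.0160). AAP1, the alanine/arginine aminopeptidase gene that starts 540 nt away on the other strand, stood at 0.41, −0.13 and 0.74 in med7-1002, med21-1002 and med10-1002 and passed in none (adjusted p = 0.138, 0.792 and 0.0703).

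XUT_11F-281, on the plus strand of chromosome XI from 643001 to 644399, followed the same order at 87.9 and 77.9 CPM in parent, 29.7 and 38.6 with med7-1002, 65.1 and 62.4 with med21-1002, and 138 and 128 with med10-1002. It fell by 1.27 in med7-1002 (SE 0.15, edgeR adjusted p = 0.000183) and rose by 0.68 in med10-1002 (SE 0.15, adjusted p = 0.0279), and did not pass in med21-1002 (−0.38, adjusted p = 0.173). XUT_6R-17, on chromosome VI, rose in both med21-1002 and med10-1002, from 44.4 and 37.9 CPM in parent to 67.4 and 67.3 and to 71.3 and 68.0 (0.71 and 0.76, adjusted p = 0.0156 and 0.0148), while med7-1002 at 35.2 and 40.7 CPM overlapped parent. XUT_7F-347 and XUT_4F-50 rose in med10-1002 and passed in neither other mutant, from 5.53 and 4.36 to 14.7 and 15.0 CPM (1.59, adjusted p = 0.0224) and from 6.17 and 4.58 to 15.0 and 14.3 CPM (1.44, adjusted p = 0.0267). SUT042 covers 69.9% of XUT_4F-50 on its own strand.

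The other XUTs that rose in med10-1002 were XUT_5F-7, XUT_1F-14, XUT_13R-402, XUT_7F-59 and XUT_7F-283. XUT_5F-7, from 21402 to 24757 on the plus strand of chromosome V, stood at 139 and 131 CPM in parent, 117 and 97.2 with med7-1002, 116 and 139 with med21-1002, and 227 and 226 with med10-1002, and rose by 0.75 (SE 0.14, edgeR adjusted p = 0.0169). XUT_1F-14 rose from 13.1 and 15.2 to 26.7 and 28.1 CPM (0.96, adjusted p = 0.0264) and XUT_13R-402 from 21.3 and 26.8 to 46.3 and 49.5 CPM (0.99, adjusted p = 0.0244). These 3 lie opposite HXT13, FLO9 and FKS3, genes that were not analysed here. XUT_7F-59 was called higher in med10-1002, at 3.54 and 3.38 CPM, and in med7-1002, at 2.46 and 1.33 CPM. It was low in parent at 0.48 and 0.17 CPM and passed the filter through the mutant libraries. Fold values for it rest on few parent reads and are not given. XUT_7F-283, opposite YGR067C, rose from 9.99 and 10.4 to 17.7 and 22.7 CPM (0.99, adjusted p = 0.0478).

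Some XUTs separated med21-1002 from med10-1002 while passing in neither against parent. XUT_11F-137 stood at 2.39 and 3.36 CPM in parent, 2.15 and 1.36 in med21-1002, and 11.4 and 10.1 in med10-1002, a difference of −2.60 between the mutants (edgeR adjusted p = 0.0162). XUT_7R-483 was at 0.70 and 0.27 CPM in med21-1002 and at 4.10 and 4.22 in med10-1002 (−3.04, adjusted p = 0.0332). XUT_15F-206 was at 0.90 and 0.75 CPM in med21-1002 and at 10.7 and 9.95 in med10-1002 (−3.63, adjusted p = 0.0494), with med7-1002 libraries at 20.8 and 0.98 CPM. XUT_15R-466 was higher in med21-1002, at 10.2 and 9.08 CPM against 4.34 and 5.25 in med10-1002 (1.01, adjusted p = 0.0473). XUT_15R-8, which did fall against parent in med21-1002, differed by −3.59 (adjusted p = 0.000973).

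Some XUTs follow closely behind a coding gene on their own strand, where reads of the 2 transcripts could be mixed at the annotated border, and their values are given together. XUT_15R-430 had the highest parent level per kb of all XUTs, 364 CPM per kb, and begins 75 nt beyond the annotated end of TYE7, which encodes an activator of glycolytic genes. It stood at 129 and 165 CPM in parent, 80.9 and 68.8 with med7-1002, 145 and 154 with med21-1002, and 62.6 and 86.0 with med10-1002, and fell by 0.99 in med10-1002 (SE 0.18, edgeR adjusted p = 0.0173) and by 0.98 in med7-1002 (adjusted p = 0.00233). TYE7 fell by 0.66 and 0.90 there (adjusted p = 0.0325 and 0.00115), and in med21-1002 the XUT stood at 0.02 and TYE7 at 0.16. XUT_4R-468 lies between HXT6 and HXT7, near-identical genes of high-affinity glucose transporters, and overlaps both on the same strand. It rose by 1.28 in med21-1002, from 53.8 and 53.2 to 151 and 109 CPM (SE 0.17, adjusted p = 0.00289), where HXT7 rose by 3.30 and HXT6 by 2.39. In med7-1002 the XUT fell by 0.53 (adjusted p = 0.0323), while HXT7 and HXT6 rose by 2.89 and 2.18. The separate values of HXT6 and HXT7 are uncertain. XUT_7R-269, named above, begins 135 nt beyond YGR050C, which fell by 2.29 in med21-1002 (adjusted p = 0.0294) where the XUT rose.

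**Figure D4:**
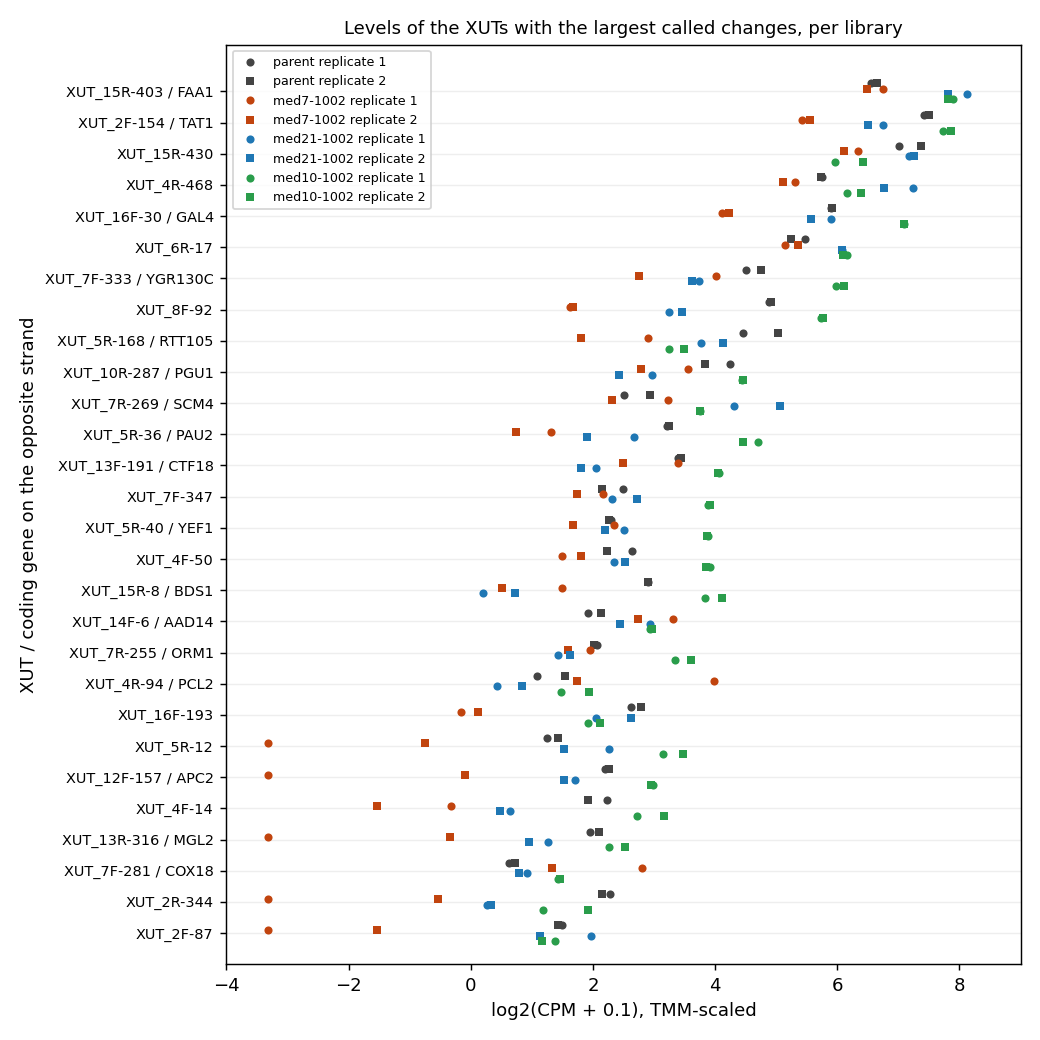
log2(CPM + 0.1) of the XUTs with the largest called changes in each library, ordered by mean CPM, with the coding gene opposite where there is one. The med10-1002 points lie to the right of the parent points for most rows, but the rows were chosen by their called changes, which shapes this. At the left edge of the data are 5 XUTs with 0 counts in med7-1002 replicate 1.

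In med7-1002 the XUTs with the largest called falls included 5 with 0 counts in replicate 1, namely XUT_2F-87, XUT_2R-344, XUT_13R-316, XUT_12F-157 and XUT_5R-12. They had 43 to 89 counts in each parent library, and 5 to 17 in med7-1002 replicate 2, so fold values for them rest on few reads and are not given. XUT_4F-14 fell by 3.21 (SE 0.57, edgeR adjusted p = 0.00171), from 4.57 and 3.70 to 0.70 and 0.25 CPM, and XUT_16F-193 by 2.84 (SE 0.44, adjusted p = 0.000795), from 6.06 and 6.84 to 0.79 and 0.98 CPM. Of the 8 XUTs that rose in med7-1002, 3 had a mean log2 CPM of at least 1 over all libraries and both med7-1002 libraries above parent, namely XUT_4R-94, XUT_7F-281 and XUT_14F-6. XUT_4R-94, opposite the cyclin gene PCL2, rose by 1.96 (SE 0.69, adjusted p = 0.0421), but its med7-1002 libraries stood at 15.7 and 3.25 CPM against 2.02 and 2.81 in parent. XUT_7F-281, opposite COX18, which is needed to insert a cytochrome oxidase subunit into the membrane, was at 6.85 and 2.41 against 1.44 and 1.54 CPM (1.61, adjusted p = 0.0427). XUT_14F-6 was at 9.84 and 6.54 against 3.67 and 4.30 CPM (1.03, adjusted p = 0.0355), and the gene opposite, AAD14 of the near-identical aryl-alcohol dehydrogenase family, fell by 1.45 (adjusted p = 0.00242).

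The ratio of each XUT to the ORF transcript opposite was tested in 215 pairs with both members past the filter, together with the other noncoding transcripts in 515 pairs (limma on log2 CPM ratios at a prior count of 2). In med7-1002 3 XUT ratios were higher and 23 lower than in parent, where 2.33% and 11.1% of all 515 pairs were called. The median change was −0.45 for the XUT pairs and −0.53 for all pairs. This direction did not hold in each med7-1002 library. Most called ratios were lower without replicate 1, but not without replicate 2. With only the 2 groups compared, 0 XUT ratios were higher and 2 lower. In med21-1002 the only call was XUT_2F-154 to TAT1, which was lower by a log2 ratio change of −2.24 (SE 0.21, limma adjusted p = 0.00212), where 0.388% of the pairs were called higher and 1.17% lower. At an unadjusted p under 0.05 5 XUT ratios were higher and 17 lower. In med10-1002 no XUT ratio passed in either direction (limma), where 0.583% of the pairs were called higher and 0% lower, and 12 were higher and 4 lower at an unadjusted p under 0.05. Without the med7-1002 libraries 9 XUT ratios were higher and 42 lower in med21-1002, against 5.24% and 21.6% of all pairs, and 30 and 14 in med10-1002, against 17.5% and 6.60%. In that fit the ratio of XUT_2R-85 to PDR3 was higher in med10-1002 (0.96, SE 0.14, adjusted p = 8.03e-05), as were those of XUT_16F-30 to GAL4 (1.02, adjusted p = 0.000400) and XUT_15R-403 to FAA1 (1.13, adjusted p = 0.000112). These XUTs had already been called higher in med10-1002 in the same libraries. Their higher ratios follow largely from that choice and are no separate support.

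The med7-1002 ratios with the largest changes came from both strands. The log2 ratio of XUT_8R-118 to PTC7, a mitochondrial protein phosphatase gene, changed by −3.66 (SE 0.36, limma adjusted p = 0.000598). XUT_8R-118 was at 16.7 and 15.8 CPM in parent and 3.87 and 2.95 in med7-1002, while PTC7 was at 24.1 and 26.7 and at 72.8 and 64.4 CPM, so the strands moved apart without overlap. The ratio of XUT_8F-65 to the ribosomal protein gene RPS27B changed by −4.19 (adjusted p = 0.00289), with RPS27B at 46.9 and 33.6 CPM in parent and 322 and 192 in med7-1002. XUT_15R-116 had 12 and 14 counts in parent and 0 in both med7-1002 libraries, while ARG1, the argininosuccinate synthetase gene opposite, rose by 1.97 (edgeR adjusted p = 2.74e-05), and the ratio change of −4.83 (limma adjusted p = 0.00292) depends on the prior count. XUT_10R-234 and SFC1, a mitochondrial carrier gene, gave −4.26 (adjusted p = 0.0109) on levels of at most 4.48 CPM. The higher ratios were those of XUT_15F-10 to ENB1, a siderophore transporter gene, at 3.35 (adjusted p = 0.0137), XUT_14F-6 to AAD14 at 2.53 (adjusted p = 0.0193) and XUT_4R-263 to SNF11, a gene of the SWI/SNF chromatin remodeller, at 2.17 (adjusted p = 0.0402). In each of these 3 the ORF transcript fell, by 1.53, 1.45 and 1.36.

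The calls on both strands were counted for each pair. In med7-1002 26 of 215 pairs had both members called, of which 16 had both lower, 2 both higher, 6 the XUT lower and the ORF transcript higher, and 2 the reverse. Of these 215 XUTs 45 fell and 5 rose in med7-1002, and 22.8% of the ORF transcripts opposite were called higher and 29.3% lower, so most pairs with 2 calls had to hold a XUT that fell. In med21-1002 3 pairs had both called, 1 with both higher, 1 with both lower and 1 with the XUT lower and the ORF transcript higher, and in med10-1002 there were 0 such pairs, although 9 XUTs and 22 ORF transcripts were called. Without the med7-1002 libraries the med21-1002 counts were 13 both lower, 1 both higher, 7 with the XUT lower and the ORF transcript higher and 1 the reverse, and the med10-1002 counts were 6, 9, 1 and 2. Across the 215 pairs the log2 fold changes of both strands had a Pearson correlation of 0.14 in med7-1002, 0.07 in med21-1002 and 0.23 in med10-1002, with Spearman values of 0.16, 0.07 and 0.26, a description over pairs that share libraries and scaling. In parent the XUT was above its ORF transcript per kb in 18 of 222 pairs with at least 100 uncovered nt, among them XUT_2R-85 (171 against 83.4 CPM per kb) and XUT_5R-168 (49.5 against 14.3). At XUT_12F-1, chosen after its values were seen, 16 counts over all libraries stood against 28108 for MHT1 opposite, or 0.0569%, where the XUT overlaps 14% of the MHT1 transcript.

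**Figure D5:**
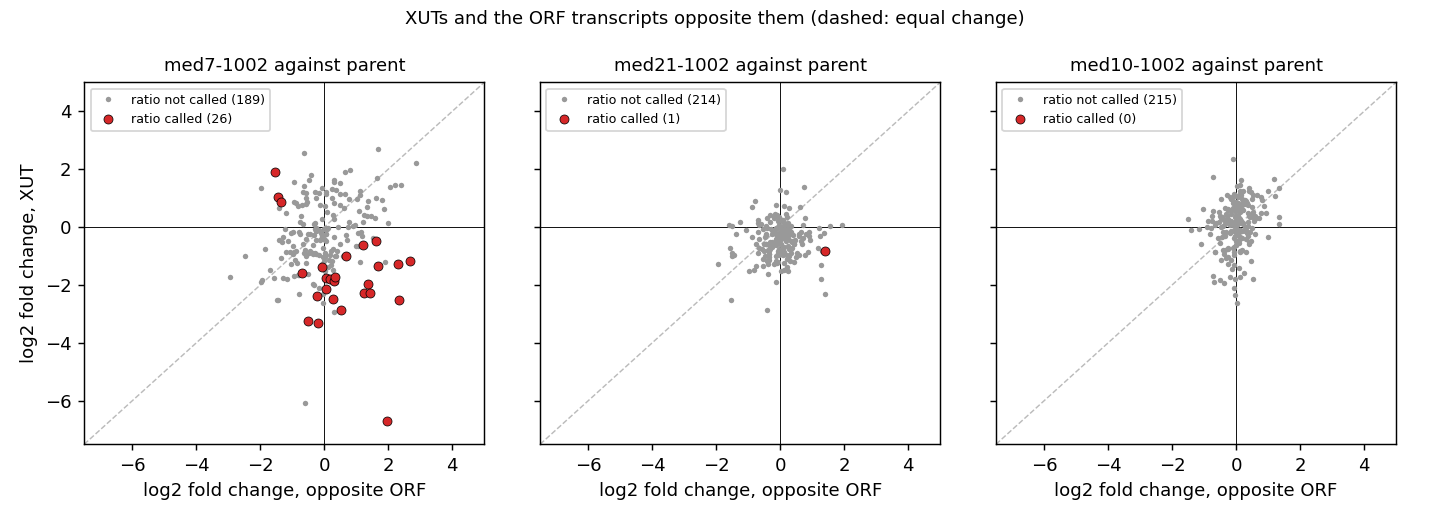
log2 fold change of the XUT against that of the ORF transcript opposite in 215 pairs per mutant, with pairs whose ratio was called by limma in red and the dashed line marking equal change. Called ratios number 26 in med7-1002, 1 in med21-1002 and 0 in med10-1002, and the points scatter on both sides of each axis.

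Genes of RNA decay and of antisense restraint were read from lists, and whether they act on these XUTs was not tested. Of 20 genes of 5′-to-3′ RNA decay 18 were tested, and XRN1 and DCP1 were not analysed here. In med7-1002 8 rose and 3 fell, where 25.9% and 22.6% of all transcripts were called, with the decapping scavenger gene DCS1 at 1.29 and the Lsm ring genes LSM6 and LSM5 at 1.62 and 2.05 among the risers and EDC2, an activator of decapping, at −1.17 (edgeR adjusted p = 0.000312, 0.00190, 0.00221 and 0.000392). DCP2 and NMD2 were the others that fell there, by 0.91 and 0.47 (edgeR adjusted p = 0.00458 and 0.0137). The median of the list was 0.46 in med7-1002, against 0.02 over all transcripts. In med21-1002 DCS1 rose (0.72, adjusted p = 0.0345) and EDC2 fell (−0.73, adjusted p = 0.0266), and in med10-1002 EDC2 (−0.73, adjusted p = 0.0279) and EDC1 (−0.74, adjusted p = 0.0330) fell. The medians were 0.00 and −0.14. Of 20 chromatin and termination genes known to restrain antisense transcription 16 were tested. In med7-1002 3 rose and 8 fell, against the same shares of all transcripts. The falls with the smallest adjusted p were those of RCO1, a subunit of the Rpd3S deacetylase (−1.34), HDA2 of the Hda1 deacetylase (−0.96), the remodeller gene ISW2 (−0.94) and SET3 of another deacetylase complex (−0.81), with edgeR adjusted p from 9.74e-05 to 0.000518. NRD1, an RNA-binding factor of noncoding transcription termination, fell by 1.28 (adjusted p = 0.00433) and SET1, the histone H3 lysine methyltransferase gene, by 0.86 (adjusted p = 0.000743). The 3 that rose were SPT16 (0.65), POB3 (0.42) and SPT6 (0.69), with edgeR adjusted p = 0.0053, 0.011 and 0.0124. In med21-1002 POB3, a subunit of the histone chaperone FACT, rose (0.42, adjusted p = 0.0493), and in med10-1002 none of the 16 passed in the edgeR test. The medians of this list were −0.37, −0.01 and −0.15 in med7-1002, med21-1002 and med10-1002, against 0.02, 0.00 and −0.01 over all transcripts.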

How the data were processed

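The authors deposited unnormalised counts of reads for each transcript in each library, with their transcript annotation. The tools named in the submitters' processing notes are HTSeq, SAMtools and STAR 2.3.0, and the builds are sacCer3 and R64. How strand and multiple overlaps were handled in counting is not given in the sources used here. Tallies that name no transcript were left out. Reads assigned to no feature were 49.5% of med7-1002 replicate 1 and 32.7% to 37.7% of each other library. XUTs were paired with the ORF transcript of longest overlap on the other strand. TMM scaling, filterByExpr at a minimum count of 10 (5746 transcripts kept) and the quasi-likelihood test came from edgeR 4.0.16 under R 4.3.3, with 1 fit of all 8 libraries with 4 residual degrees of freedom and Benjamini-Hochberg adjustment over all transcripts at 0.05. Each SE was derived from a log2 fold change and its F value. Strand ratios were tested with limma 3.58.1, and DESeq2 1.42.0 was an alternative. The procedures were tested on simulated data. Named XUTs are those with the largest called changes, 8 per direction and mutant and 4 per pair of mutants, with mean log2 CPM 1 or above and no overlap, the 10 highest per kb in parent and the 4 largest called ratio changes per direction; the text describes most of them. XUT_15F-281 and XUT_16R-375, among the 10 highest per kb, rest on 24 and 8 uncovered nt. Members, lists and rules were chosen with earlier results of these data known. Counting error and library number limit the precision.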

Additional observations from a re-analysis of the deposited data

Results flagged for a closer look

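These XUTs were called in opposite directions in 2 mutants. The direct contrast between the mutants (edgeR adjusted p) is the difference of those 2 changes in the same fit. That it passed follows largely from the choice and is no separate support. XUT_8F-92 differed by −2.42 on the log2 scale between med21-1002 and med10-1002 (adjusted p = 0.000113), lower in both med21-1002 libraries and higher in both med10-1002 libraries than in parent. XUT_4R-468 differed by −1.81 between med7-1002 and med21-1002 (adjusted p = 0.000160). Between med7-1002 and med10-1002 the differences were −1.96 for XUT_11F-281 (adjusted p = 2.29e-05), −2.93 for XUT_16F-30 (5.41e-06), −2.61 for XUT_2R-85 (7.74e-06), −3.62 for XUT_5R-36 (6.66e-05), −2.57 for XUT_7F-333 (0.000326) and −4.14 for XUT_8F-92 (4.25e-06). Each of these was lower than parent in both med7-1002 libraries and higher in both med10-1002 libraries. The mating-type genes that set the med7-1002 libraries apart move with the contrasts that include them, and their part in those was not tested.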

How the results depend on the processing

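The counts of called XUTs depended mostly on which libraries share the estimate of the spread. With only the 2 groups compared, 32 XUTs were called in med7-1002, 50 in med21-1002 and 134 in med10-1002 against parent, 147 in med21-1002 against med10-1002, 24 in med7-1002 against med21-1002 and 62 in med7-1002 against med10-1002. Without the med7-1002 libraries these were 69 in med21-1002, 105 in med10-1002 and 149 between them. DESeq2 called 21 of the 314 XUTs that it gave an adjusted p in med21-1002, and 35 of 225 in med10-1002, in place of 351. Leaving out 1 library at a time gave 36 to 191 calls in med7-1002, 2 to 68 in med21-1002, 0 to 104 in med10-1002, 9 to 146 in med21-1002 against med10-1002, 22 to 196 in med7-1002 against med21-1002 and 66 to 217 in med7-1002 against med10-1002. The median log2 fold changes then ranged from −1.13 to −0.11 in med7-1002, from −0.49 to −0.31 in med21-1002 and from 0.15 to 0.33 in med10-1002, and their sign held in every alternative run. With the length trend removed the med7-1002 median was −0.78, with 99 XUTs lower. Called strand ratios ranged from 5 to 115, 1 to 48 and 0 to 45. They numbered 2, 31 and 59 with only the 2 groups compared, 51 in med21-1002 and 44 in med10-1002 without the med7-1002 libraries, and 17 in med7-1002 when the ORF had to overlap at least 50% of the noncoding transcript. With the replicate block 8 XUTs were called in med10-1002; replicate numbers did not pair the samples (correlations of deviations from −0.19 to 0.09). The small med10-1002 difference of YGR130C was −0.029 with the length trend removed and −0.003 to 0.031 with 1 library left out, and that of RTT105 −0.039 to 0.201. The cause was not tested. Of 53 calls of named XUTs all kept their direction, 37 also passed with the replicate block, 53 in DESeq2 and 26 and 24 without parent replicate 1 and 2. At a median of 17 to 44 counts, small changes of single XUTs cannot be seen.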
